A study of Mus musculus with 6 samples.

Results

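The proximal block of mouse chromosome 3 is a run of neighbouring genes whose RNA was lower in the resistant clone B04 of the CT26 tumour line than in the parental line. Its members were the protein-coding genes that start between positions 5560188 and 53692878 of chromosome 3 (mm10, GENCODE M21) and that had a mean of 10 or more normalised counts, that is expected counts divided by a library's size factor, over the 6 libraries. The 89 members were taken from 165 protein-coding genes annotated in the interval, of which 52 were at 0 in every library and 24 lay above 0 but under the minimum. Over the whole series 10953 protein-coding genes passed the same minimum. The limits of the interval were selected on measured values, the difference between B04 and the parental libraries, so that difference is given below as a description of the members and carries no test.

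The measurements were RNA-seq of CT26, a mouse colon carcinoma line of the Balb/c strain, with 3 groups of 2 libraries each (A and B). The parental group was the bulk of barcoded CT26 cells that had been recovered from established tumours, and B04 and B64 were clones, each grown from 1 cell, that resisted immune checkpoint blockade, the antibody treatment that releases T cells from inhibitory receptors. The labels call the samples tumours derived from the parental line or from a clone resistant to PD1 antibody, while the growth protocol and the study's methods describe cells kept in RPMI medium with no treatment. Each clone stands for itself alone, and the sources do not say whether libraries A and B came from separate cultures, so every p-value measures the spread between these libraries, which may be technical.

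Neighbouring genes on a chromosome can share DNA copy number, replication timing and chromatin state, and each of these can act on a whole stretch rather than on single genes. The middle of this block corresponds to a segment of the long arm of human chromosome 3 that is often gained in squamous carcinomas, and it carries Pik3ca, Prkci, Ect2, Sox2, Skil and Mecom. PIK3CA is the catalytic subunit of the PI3 kinase that growth factor receptors switch on. FOXO1, encoded near the distal end, is a transcription factor that this kinase pathway holds out of the nucleus. DNA copy number and chromatin of these clones were not analysed here.

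Promoter sequences are shown for 4 members that mark the range of behaviour in B04 by normalised counts. Naa15 and Nceh1 were among the lowest abundant members, Pik3ca was near the median of the block, and Plk4 was close to the parental level. Each run holds 250 bases before and 50 bases after the RefSeq start of the gene (GRCm38.p6, the mm10 assembly), written 5′ to 3′ on the gene's strand. Capitals mark exact matches, on either strand, to 5 short motifs. These were the box of letters CCAAT, the GC box searched as GGGCGG, the box of TATA promoters searched as TATAAA, the E box searched as CACGTG, and the cell cycle homology region (CHR) searched as TTTGAA. No motif overlaps another in these windows. For Pik3ca and Plk4 the window ends before the gene start given by GENCODE M21.
Naa15 (chr3:51415766-51416065, plus strand): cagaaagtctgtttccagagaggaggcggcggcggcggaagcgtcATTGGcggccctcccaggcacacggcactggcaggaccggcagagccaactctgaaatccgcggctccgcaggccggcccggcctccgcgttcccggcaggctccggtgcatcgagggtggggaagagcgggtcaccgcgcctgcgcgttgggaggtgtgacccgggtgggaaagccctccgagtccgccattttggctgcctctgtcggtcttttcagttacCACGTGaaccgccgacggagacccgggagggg
Nceh1 (chr3:27182754-27183053, plus strand): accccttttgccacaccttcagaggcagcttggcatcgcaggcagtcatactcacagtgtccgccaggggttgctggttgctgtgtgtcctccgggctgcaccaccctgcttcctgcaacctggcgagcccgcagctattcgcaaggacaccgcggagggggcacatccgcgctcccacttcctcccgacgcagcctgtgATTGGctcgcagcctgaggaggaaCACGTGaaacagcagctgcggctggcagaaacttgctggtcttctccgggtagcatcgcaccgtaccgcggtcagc
Pik3ca (chr3:32396815-32397114, plus strand): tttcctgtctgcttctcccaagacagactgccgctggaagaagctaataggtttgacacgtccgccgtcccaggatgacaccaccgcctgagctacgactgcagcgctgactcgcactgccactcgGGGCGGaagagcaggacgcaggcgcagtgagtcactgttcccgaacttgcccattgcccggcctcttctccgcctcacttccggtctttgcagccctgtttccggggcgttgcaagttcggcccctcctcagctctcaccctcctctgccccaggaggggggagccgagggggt
Plk4 (chr3:40799701-40800000, plus strand): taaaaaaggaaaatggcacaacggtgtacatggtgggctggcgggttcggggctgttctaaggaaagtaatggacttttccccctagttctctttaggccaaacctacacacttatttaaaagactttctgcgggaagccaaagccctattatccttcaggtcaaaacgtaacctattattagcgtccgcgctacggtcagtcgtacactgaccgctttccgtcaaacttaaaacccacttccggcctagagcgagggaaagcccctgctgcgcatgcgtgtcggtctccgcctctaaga

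Naa15 and Nceh1 each held a CACGTG and an inverted CCAAT, Pik3ca held 1 GC box, and the Plk4 window held none of the 5 sequences. In all, 63 of the 89 members matched by symbol, with 76 promoters between them. A GC box was found in 69.7% of these promoters, against 35.7% of all 32851 promoters in the reference table and 64.03% of the 11085 promoters of genes that passed the same minimum count. CCAAT was found in 39.5% of member promoters, 37.4% of all promoters and 38.5% of those of expressed genes, and CACGTG in 13.2%, 7.15% and 10.1%. TATAAA was found in 7.89% of member promoters, 13.6% of all and 6.62% of those of expressed genes, and TTTGAA in 15.8%, 17.9% and 11.9%. The median GC content was 63.2% in member promoters, 61.0% in promoters of expressed genes and 52.7% in all promoters. The members had passed the same minimum count as the expressed genes, so nothing is read from their nearness to that set.

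The libraries held 19409204 to 23472012 expected counts. The length lost to fragment size, which reads out the mean fragment length, was 277 bases in parental A and 276 in parental B, 272 in B04 A, 225 in B04 B, and 221 and 246 in B64, so B64 and parental libraries did not overlap in this measure and B04 had one library of each kind. Its part in the results was not tested beyond a fit with a long or short class as a term and a fit with an offset for effective length. The epithelial markers Epcam and Cdh1 were at 0.06 TPM or less in every library although CT26 is a carcinoma line, Krt18 was at 12.3 to 22.4 TPM, and Vim was at 2042 to 3799 TPM. Of the 8 leukocyte markers, Cd3e, Cd8a and Ncr1 were at 0 in all libraries, and Ptprc, Cd4, Itgam and Adgre1 were at 0.07 TPM or less. The last, Cd68, was at 10.1 to 12.0 TPM in parental and B04 libraries and 36.1 to 39.6 TPM in B64.

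Over the 89 members, the median log2 fold change of B04 against parental was -0.35, which corresponds to 78.3% of the parental level. The lower and upper quartiles were -0.56 and -0.18, and 78 of 89 members had a negative value. In single libraries, the median log2 ratio to the parental mean was -0.36 in B04 A and -0.38 in B04 B, while the parental libraries stood at 0.018 and -0.018. Together the members held 0.435% and 0.420% of all parental counts, 0.343% and 0.333% of B04 counts, and 0.397% in each B64 library. In bulk RNA, fewer cells that express a gene and less RNA per cell cannot be told apart.

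**Figure D1:**
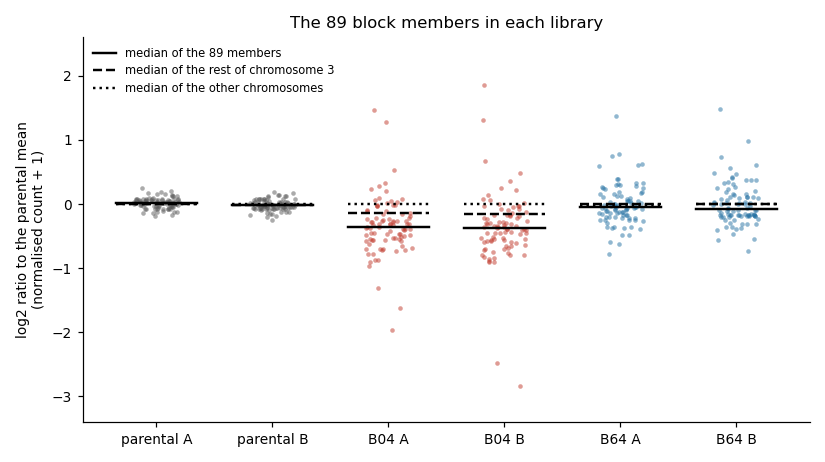
Log2 ratio of each of the 89 members to its parental mean (vertical axis; normalised count plus a pseudocount of 1) in each of the 6 libraries, one point per gene, with horizontal lines for the median of the members (solid), of the rest of chromosome 3 (dashed) and of the other chromosomes (dotted). Both B04 libraries have a member median near -0.37, below their dashed and dotted lines, and in B64 the 3 lines lie close together.

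Both B04 libraries were below both parental libraries for 67 members, both were above for 7, and the groups overlapped for 15. Across all 10953 expressed protein-coding genes the same order was met downward by 35.4% and upward by 33.5%. DESeq2, fitted across all genes with an adjusted p under 0.05, called 49 members lower and 3 higher in B04, where 12.9% of the 13218 genes tested were called lower and 11.2% higher. Since the interval was taken from this contrast, nothing is read from these counts. The number called lower was 29 without parental A, 31 without B04 A, 30 without B04 B and 27 with the fragment class as a term, and the number called higher was 1 without any one of the 6 libraries, whereas the median over the members stayed between -0.39 and -0.35 in all of these fits. Of the members named below by rule, the fragment class fit lost the call lower for Bbs12, Car13, Cog6, Elf2, Gyg, Intu, Mfn1, Ndufb5, Noct and Proser1 and the call higher for Ccna2 and Pcdh18. Members named after their values were seen, such as Pik3ca and Foxo1, were not followed singly over the alternative fits.

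The lowering was spread over the block rather than carried by a few genes. Of the 89 members, 3 had a log2 fold change of -1 or lower, 28 lay between -1 and -0.5, 35 between -0.5 and -0.2, 12 between -0.2 and 0, and 11 above 0. In all, 46 members were within 0.2 of the median. The 10 members with the most negative values held 31.1% of the summed fall. Leaving out the 10 members with the largest absolute change moved the median from -0.35 to -0.34, and leaving out 20 moved it to -0.31. The 37 members that were not called had a median of -0.18, and 29 of them were negative. Across the 89 members, the difference of B04 A from parental A and that of B04 B from parental B had a Pearson correlation of 0.89 and a Spearman correlation of 0.81, so the same members were low or spared in both pairs of libraries.

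**Figure D2:**
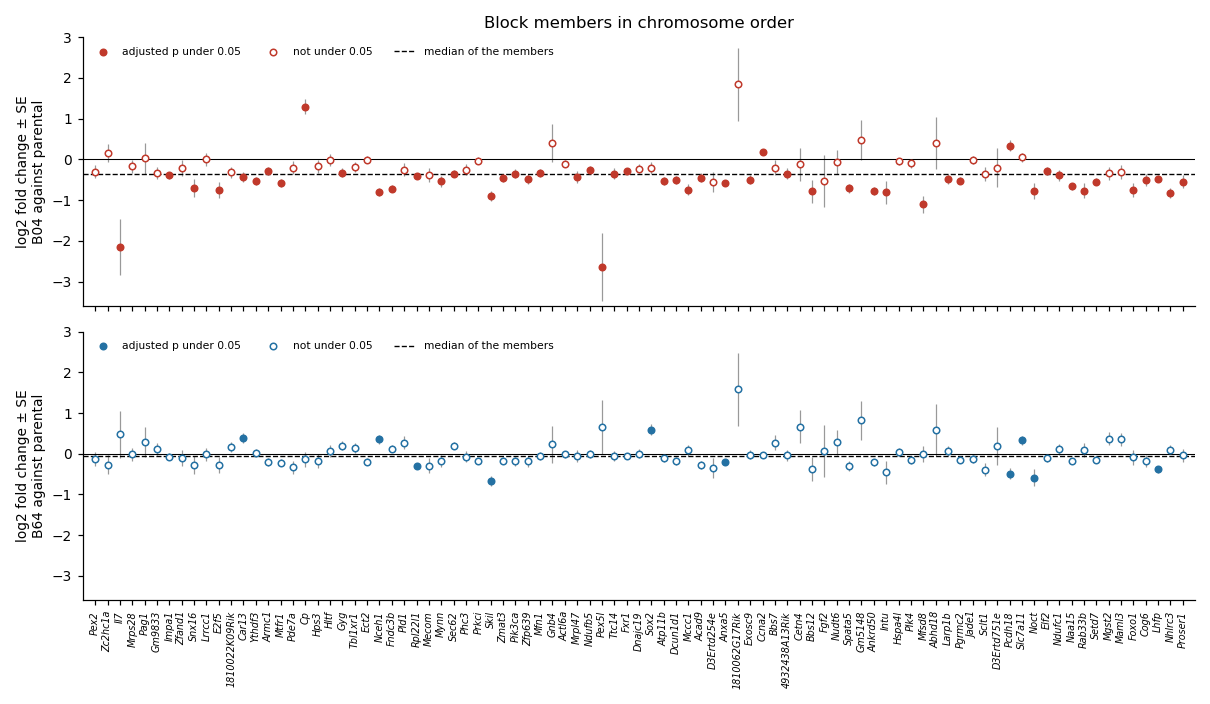
Log2 fold change with its SE (vertical axis) of the 89 members in chromosome order (horizontal axis) for B04 (upper panel) and B64 (lower panel) against parental. Filled points have an adjusted p under 0.05 and the dashed line is the median of the members, which is -0.35 in the upper panel and -0.053 in the lower.

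Cut into runs of 10 consecutive members, with 9 in the last, the block gave a negative B04 median in all 9 runs. The smallest was -0.26, in the run from Pex2 to Lrrcc1, and the largest -0.56, in the run from Rab33b to Proser1 at the distal end, where all 9 members were negative. All members were also negative in the runs from Gyg to Sec62 and from Ndufb5 to Acad9. In bins of 10 Mb, the 12 members between 40 and 50 Mb had the median nearest to 0, at -0.15, and 3 of them, Abhd18, Pcdh18 and Slc7a11, were above 0, while Hspa4l, Plk4 and Jade1 were near it. Abhd18 and Jade1 were singled out after their values were seen. Of the other members near the parental level, Lrrcc1 lay in the first run, Hltf in the second, Ect2 in the third, Prkci in the fourth and Ccna2 in the sixth. Within the block, the B04 value had a correlation of -0.04 with the start position (Pearson, 89 genes of the same libraries).

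The Pearson correlation of the B04 value over the 89 members was 0.02 with GC content, -0.16 with log2 transcript length and -0.04 with log2 mean count. The block is poor in GC, with a median of 43.9% over members' exons against 49.8% over genes of the other chromosomes. By abundance, the 28 members with a mean of 1000 or more had a median of -0.46 and 27 of them were negative, where genes of that abundance on the other chromosomes had a median of -0.042. The 22 members between 500 and 1000 had a median of -0.34, against -0.0084 on the other chromosomes, and the 28 between 100 and 500 a median of -0.38, against 0.061. The 11 members between 10 and 100 had a median of -0.067 with values from -2.64 to 1.84, against 0.19 for the 1267 such genes elsewhere, and it was among these few counts that the most extreme members stood.

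No expressed protein-coding gene lay before the first member, Pex2, so the block begins at the proximal end of the expressed chromosome. The distal limit was less sharp. Proser1 (chr3:53463666-53481755), the last member, had normalised counts of 432 and 396.5 in the parental pair, 283 and 281 in the B04 pair and 419 and 388 in the B64 pair, a log2 fold change of -0.56 ± 0.16 (SE) in B04. Ufm1, the first expressed gene beyond the limit and the gene of a small ubiquitin-like modifier, had 1615 and 1640.4 in the parental pair, 965 and 1004 in the B04 pair and 1447.5 and 1578 in the B64 pair, and its log2 fold change of -0.73 ± 0.09 was more negative than that of Proser1. Beyond it, Supt20 was at -0.25 ± 0.12, Exosc8 at 0.02 ± 0.08 and Alg5 at -0.31 ± 0.08.

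The rest of chromosome 3 was also below the parental libraries in B04, by less. Its 446 expressed genes had a median of -0.14, with 306 negative, against -0.0011 for the 10418 genes of the other chromosomes. By distance, the 19 genes from the limit to 60 Mb had a median of -0.084, the 36 genes from 60 to 80 Mb -0.23, the 177 genes from 80 to 100 Mb -0.19, and the 93 genes from 100 to 120 Mb -0.13. The 72 genes from 120 to 140 Mb were at -0.032 and the 49 genes beyond at -0.053. Among the medians of the 20 chromosomes, block included, chromosome 3 was the lowest in B04 at -0.18, followed by chromosome 1 at -0.12, and chromosome 15 was the highest at 0.18. In B64 chromosome 3 stood at -0.016.

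**Figure D3:**
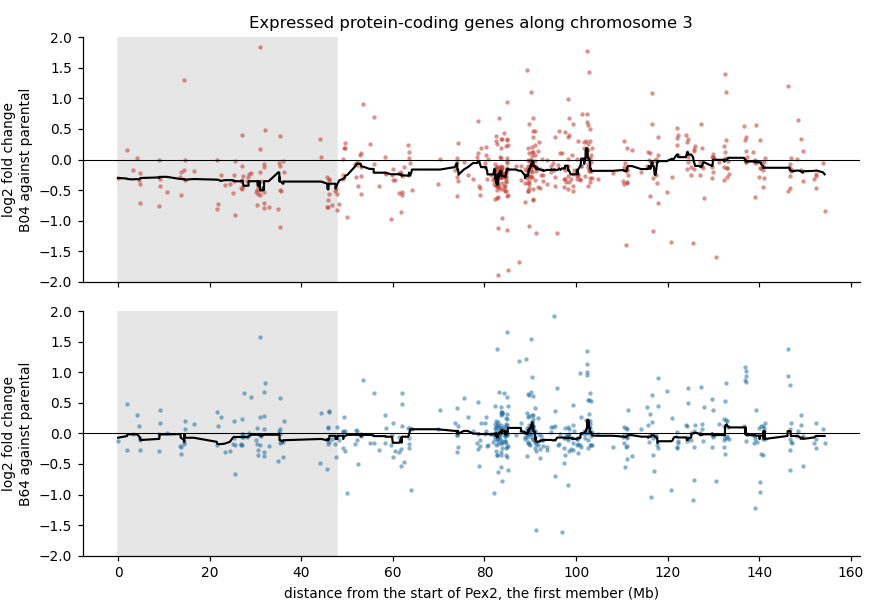
Log2 fold change against parental (vertical axis) of every expressed protein-coding gene of chromosome 3 by distance in Mb from the start of Pex2 (horizontal axis), for B04 (upper panel) and B64 (lower panel), with a running median of 21 genes (black) and the block shaded. The B04 line stays below 0 through the shaded block and rises beyond it, reaching 0 at several places farther along, and the B64 line stays near 0. Beyond the axis limits of 2 in either direction lie 11 genes for B04, 2 of them members, and 5 for B64.

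A pair of other chromosome stretches of similar size were set beside this one. A block on chromosome 1 with 85 expressed genes had medians of -0.32 in B04 and -0.25 in B64, and a block on chromosome 6 with 88 expressed genes had -0.037 in B04 and -0.30 in B64. The chromosome 3 block was at -0.35 and -0.053. All 3 blocks were taken from the same libraries, so the differences between them were not tested.

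The members were read by role from lists of 105 gene places, on which 68 of the 89 members stand at least once. The lists were drawn up with earlier results of these data known. Their B04 calls come from the contrast that set the interval, in which 49 of the 89 members and 12.9% of all genes tested were called lower and 11.2% of all genes higher, so nothing is read from a list's count. Where exons overlap those of a neighbour on the other strand, the counts cannot be assigned with certainty, because the sources do not state strand-specific counting.

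**Figure D4:**
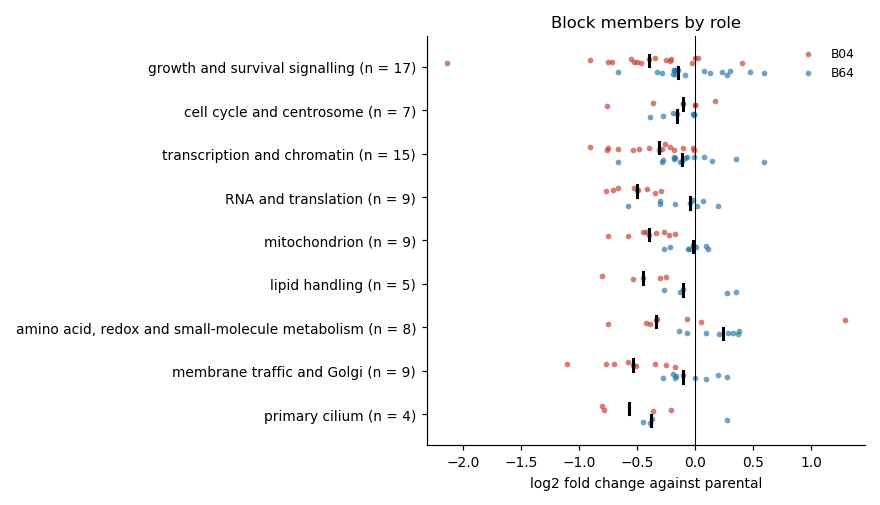
Log2 fold change against parental (horizontal axis) of the members on each role list (rows, with the number of expressed members), one point per gene for B04 (red) and B64 (blue), with a black bar at the median of each list. The B04 medians run from -0.57 for the primary cilium list to -0.10 for the cell cycle list, and the B64 medians from -0.38 to 0.24.

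Growth and survival signalling had 17 expressed members of 23 listed, with a B04 median of -0.39 and 15 of 17 negative, and 8 were called lower. Pik3ca (chr3:32397671-32468486) had 963.5 and 872 normalised counts in the parental pair, 738 and 702 in the B04 pair and 840.4 and 774 in the B64 pair. By these counts the B04 pair lay below the other 4 libraries, at a log2 fold change of -0.35 ± 0.12. That is 78.5% of parental, close to the median of the block. In TPM the order of the clones differed. Pik3ca had 12.01 and 10.49 TPM in the parental pair, 7.31 and 7.04 in B04 and 6.92 and 6.19 in B64, the lowest. Pik3ca, Foxo1, Mecom, Il7, Dcun1d1 and Fgf2 were singled out after their values were seen, because they are widely studied in cancer. Foxo1 (chr3:52268336-52353221) had 431 and 355 in the parental pair, 242 and 226 in the B04 pair and 388.5 and 350.1 in the B64 pair. Its B04 libraries were clear of the rest (-0.75 ± 0.18), and B64 overlapped parental.

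Skil (chr3:31095058-31122577) encodes SnoN, a repressor of TGF-beta signalling. It had 1066 and 977 normalised counts in the parental pair, 523 and 566 in the B04 pair and 597 and 689.7 in the B64 pair. Both clones lay below parental without overlap, at -0.91 ± 0.12 in B04 and -0.67 ± 0.12 in B64, the latter with an adjusted p of 2.24e-06. Fndc3b, which encodes a membrane protein of the endoplasmic reticulum, had 2384 and 2144.5 in the parental pair, 1436 and 1309 in the B04 pair and 2507 and 2438 in the B64 pair, at -0.72 ± 0.09 in B04. Zmat3, an RNA-binding target of p53, had 3139 and 2958 in the parental pair against 2324 and 2087 in B04 (-0.47 ± 0.08). Dcun1d1, which promotes cullin neddylation, had 1258 and 1148.5 in the parental pair against 824.5 and 874 in B04 (-0.50 ± 0.10).

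Prkci, the atypical protein kinase C that acts in cell polarity, was close to the parental level in B04 by normalised counts. It had 2539 and 2340.0 normalised counts in the parental pair, 2391 and 2390.0 in the B04 pair and 2164.5 and 2134 in the B64 pair, a B04 value of -0.03 ± 0.08. By these counts the B04 libraries fell between the 2 parental ones. In TPM the B04 pair, at 38.99 and 34.55, lay above the parental pair, at 33.04 and 26.1. Mecom, a zinc finger transcription factor of blood stem cells, had 359 and 339 in the parental pair against 251 and 279.9 in B04 (-0.39 ± 0.17). The cytokine gene Il7 had 27.7 and 27.1 in the parental pair, 8.2 and 4.1 in the B04 pair and 34.0 and 42.1 in the B64 pair, and at such counts its value of -2.14 ± 0.69 carries a wide error. Fgf2, which encodes a growth factor and overlaps Nudt6 on the other strand, was barely expressed, with 19.1 and 25.3 in the parental pair against 16.4 and 14.3 in B04. Spry1, Tnik, Tnfsf10, Usp13, Pkia and Tpd52 were listed but did not reach the minimum count.

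**Figure D5:**
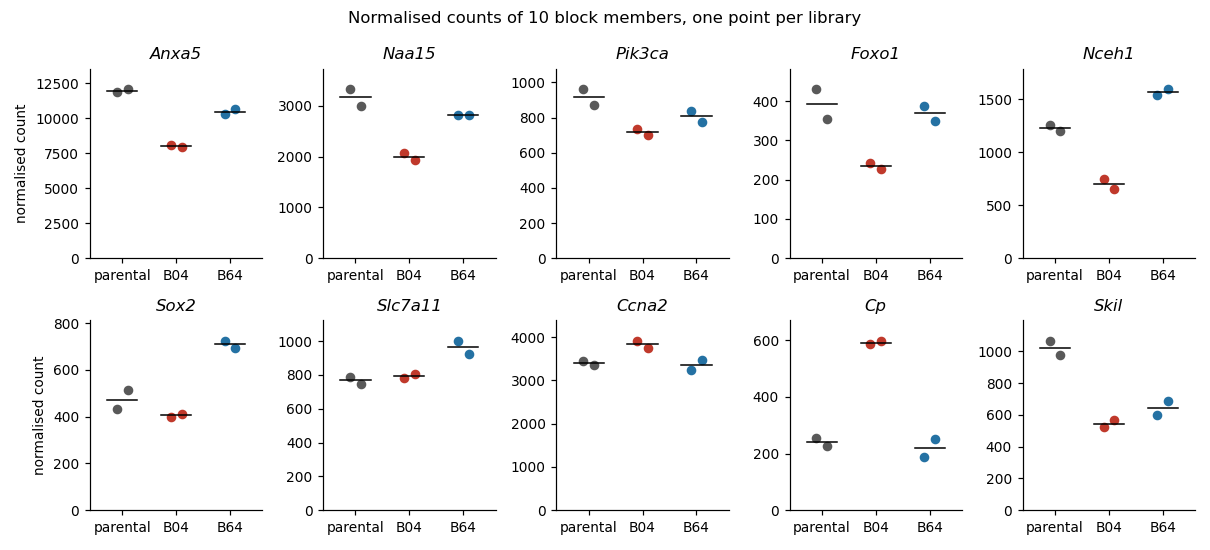
Normalised counts (vertical axis, from 0) of 10 members in the parental, B04 and B64 libraries, one point per library, with a line at the mean of each pair. Anxa5, Naa15, Pik3ca, Foxo1 and Nceh1 have both B04 points below all others, Ccna2 and Cp have them above both parental points, and Sox2 and Slc7a11 are highest in B64.

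Cell cycle and centrosome genes stood nearer to the parental level. All 7 listed were expressed, and their B04 median was -0.10, with 1 called lower and 1 higher. The 1 called higher was Ccna2, whose call was lost in 11 of the 16 alternative fits. Ccna2 (chr3:36564865-36572150), cyclin A2, which drives S phase and entry into mitosis, had 3442 and 3362 normalised counts in the parental pair, 3914 and 3752 in the B04 pair and 3235 and 3464 in the B64 pair. The B04 pair was above both parental libraries, by 0.17 ± 0.07, and 12.5% of its exon bases overlap Exosc9 on the other strand. Ect2, the exchange factor that places the cleavage furrow, had 3008 and 2739 in the parental pair, 2956 and 2769.6 in the B04 pair and 2470.3 and 2563 in the B64 pair, and its B04 value was -0.01 ± 0.08. Plk4, the kinase that starts centriole duplication, had 1369.9 and 1235.5 in the parental pair against 1269 and 1158 in B04, which overlapped (-0.10 ± 0.10).

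Actl6a, a subunit of SWI/SNF chromatin remodelling complexes, had 1686 and 1874 normalised counts in the parental pair against 1643 and 1672 in B04 (-0.10 ± 0.09). Lrrcc1, a centrosome protein gene named after its value was seen, stood at 0.00 ± 0.16. E2f5, a repressor E2F also named afterwards, was the lowest of the list, with 258.5 and 286 in the parental pair, 166 and 156 in the B04 pair and 228 and 221 in the B64 pair (-0.76 ± 0.20 in B04). In B64, all 7 genes of the list were negative, with a median of -0.15, and DESeq2 called 0 (2 at an unadjusted p under 0.05, and 2 by edgeR).

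Transcription and chromatin had 15 expressed members of 17 listed, all 15 negative in B04 with a median of -0.31, and 7 were called lower. Naa15 (chr3:51415148-51476507), the auxiliary subunit of the NatA acetyltransferase that modifies nascent proteins, had 3332 and 2997 normalised counts in the parental pair, 2062 and 1934 in the B04 pair and 2810.1 and 2811 in the B64 pair. The 3 groups did not overlap, and B04 was -0.66 ± 0.08 from parental. Elf2, an ETS family factor, had 1179 and 1170.0 in the parental pair, 988 and 934 in the B04 pair and 1127 and 1048 in the B64 pair (-0.29 ± 0.10 in B04). Jade1, a scaffold of a histone acetyltransferase complex, had 1019.7 and 1012.8 in the B04 pair and 1013.1 and 1046.6 in the parental pair, so the groups overlapped.

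Sox2 (chr3:34650405-34652461), a factor of stem cell identity that has a single exon, had 431 and 512.5 normalised counts in the parental pair, 399 and 413 in the B04 pair and 725 and 696 in the B64 pair. B64 lay above all other libraries, at 0.59 ± 0.14 with an adjusted p of 0.000369, while B04 lay just below parental, at -0.22 ± 0.14.

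RNA and translation had 9 expressed members of 10 listed. All 9 were negative in B04 and all 9 were called lower, with a median of -0.50 and values from -0.77 to -0.29. Rpl22l1 (chr3:28805436-28807424), a paralogue of the ribosomal protein L22, had 5459 and 5686 normalised counts in the parental pair, 4275 and 4086 in the B04 pair and 4672 and 4353 in the B64 pair. Both clones were below parental, at -0.41 ± 0.07 in B04 and -0.30 ± 0.07 in B64, where the adjusted p was 6.13e-05. Fxr1, a relative of the fragile X protein, had 2169 and 2148 in the parental pair against 1743 and 1785 in B04 (-0.29 ± 0.08). Sec62, part of the machinery that moves proteins into the endoplasmic reticulum, had 1917 and 1954 in the parental pair, 1551 and 1487 in the B04 pair and 2212 and 2229.9 in the B64 pair, so that B04 was below and B64 above the parental libraries. Noct, the circadian phosphatase nocturnin, had 290.0 and 275 in the parental pair, 164 and 167 in the B04 pair and 183.5 and 193 in the B64 pair, lower in both clones, and its B64 value of -0.58 ± 0.20 had an adjusted p of 0.0275.

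Of the mitochondrial members, all 9 expressed of 11 listed were negative in B04, with a median of -0.39, and 7 were called lower. Mtfr1, a regulator of mitochondrial fission, had 1786 and 1869.6 normalised counts in the parental pair, 1279 and 1166.5 in the B04 pair and 1537 and 1604 in the B64 pair (-0.58 ± 0.09 in B04). Ndufb5, a subunit of respiratory complex I, had 1225 and 1374 in the parental pair against 1082 and 1069.8 in B04 (-0.27 ± 0.10). Acad9, which helps to assemble complex I, had 1223 and 1276 in the parental pair against 910.2 and 921 in B04 (-0.45 ± 0.10), and Mfn1, the outer membrane fusion GTPase, 1126 and 1112 in the parental pair against 902 and 869 in B04 (-0.34 ± 0.10). In B64 the median was -0.016 and DESeq2 called 0 of the 9 (2 at an unadjusted p under 0.05, and 2 by edgeR).

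Lipid handling had 5 expressed members of 10 listed, all negative in B04, with a median of -0.45. Nceh1 (chr3:27182965-27284608), a hydrolase of neutral cholesterol esters and ether lipids, had 1258 and 1199 normalised counts in the parental pair, 751.5 and 655.5 in the B04 pair and 1538 and 1599 in the B64 pair. The groups were far apart, with B04 at -0.80 ± 0.10, or 57.3% of parental, and B64 at 0.35 ± 0.10, with an adjusted p of 0.00466. Atp11b, a phospholipid flippase, had 1471 and 1412 in the parental pair against 980.5 and 1013 in B04 (-0.53 ± 0.09). Pex2, needed to build peroxisomes and the most proximal member (chr3:5560188-5576239), had 411 and 460.1 in the parental pair, 311 and 397 in the B04 pair and 412 and 386 in the B64 pair, a B04 value of -0.30 ± 0.17. The fatty acid binding protein genes Fabp4, Fabp5, Fabp9 and Fabp12 and Cyp7b1, an oxysterol hydroxylase gene, did not reach the minimum.

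Amino acid, redox and small-molecule metabolism had 8 expressed members of 12 listed, with a B04 median of -0.33. Slc7a11 (chr3:49892526-50443614), the cystine transporter that feeds glutathione synthesis, had 788 and 747 normalised counts in the parental pair, 782 and 805 in the B04 pair and 1002 and 925 in the B64 pair. B04 overlapped parental (0.05 ± 0.11), and B64 was above it (0.33 ± 0.11, adjusted p = 0.0232). Cp (chr3:19957054-20009145), the copper-carrying ferroxidase ceruloplasmin, had 255 and 228 in the parental pair, 586 and 598.5 in the B04 pair and 187 and 251 in the B64 pair, and was the member above 100 counts that was highest in B04, at 1.30 ± 0.18. Cp shares 1.1% of its exon bases with Hps3 on the other strand, and Hps3 itself was at -0.17 ± 0.16 in B04.

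Impa1, which releases free inositol, had 1490.1 and 1576 normalised counts in the parental pair, 1178 and 1156 in the B04 pair and 1480.4 and 1439 in the B64 pair (-0.39 ± 0.09 in B04). Gyg, the primer of glycogen synthesis, had 887 and 991 in the parental pair, 775 and 719.6 in the B04 pair and 1116 and 1045 in the B64 pair (-0.33 ± 0.11 in B04). Car13, a cytosolic carbonic anhydrase, had 699 and 609.8 in the parental pair, 496 and 476 in the B04 pair and 855 and 849.5 in the B64 pair, below parental in B04 (-0.43 ± 0.13) and above it in B64 (0.38 ± 0.12, adjusted p = 0.0171). Mccc1, a subunit of the carboxylase of leucine breakdown that was named after its values were seen, had 678 and 636 in the parental pair, 358 and 423 in the B04 pair and 699 and 699 in the B64 pair (-0.75 ± 0.14 in B04). In all, 6 of the 8 were negative in B04, and in B64 the median of the list was 0.24, with 2 called higher.

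Membrane traffic and Golgi genes had 9 expressed members of 10 listed, all negative in B04, with a median of -0.53 and 7 called lower. Anxa5 (chr3:36448923-36475894), the annexin that binds exposed phosphatidylserine, had 11849 and 12088 normalised counts in the parental pair, 8081 and 7933 in the B04 pair and 10274 and 10656.5 in the B64 pair. The 3 groups did not overlap, and the B04 libraries stood at 66.9% of parental (-0.58 ± 0.05). In B64 the value was -0.19 ± 0.05, with an adjusted p of 0.00269. Mfsd8, a lysosomal membrane transporter, had 273 and 268 in the parental pair, 108.5 and 143.5 in the B04 pair and 281 and 259.7 in the B64 pair, and at -1.11 ± 0.21 it was the lowest in B04 of the members above 100 counts. Cog6, a subunit of the Golgi tethering complex, had 507.5 and 463 in the parental pair against 324 and 358 in B04 (-0.51 ± 0.15).

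The primary cilium list had 4 expressed members of 5, all negative in B04 with a median of -0.57, and 2 were called lower. Intu, a planar polarity effector needed for cilium formation, had 159 and 135 normalised counts in the parental pair, 77.5 and 90.6 in the B04 pair and 104 and 110.4 in the B64 pair (-0.81 ± 0.28 in B04). Sclt1, a distal appendage protein of the centriole, had 453 and 429 in the parental pair, 368.5 and 319 in the B04 pair and 316 and 355 in the B64 pair, at -0.36 ± 0.16 and -0.39 ± 0.16 in the 2 clones. The Bardet-Biedl genes Bbs7 and Bbs12 were at -0.21 ± 0.19 and -0.79 ± 0.29 in B04.

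Among the 21 members on no list, Nhlrc3 had 725 and 734 normalised counts in the parental pair, 427 and 394 in the B04 pair and 785 and 783 in the B64 pair (-0.83 ± 0.12 in B04). Pcdh18, a cell adhesion protocadherin, showed the opposite order, with 533 and 517 in the parental pair, 658 and 672 in the B04 pair and 349 and 399.5 in the B64 pair. It was above parental in B04 (0.34 ± 0.13) and below it in B64 (-0.49 ± 0.14, adjusted p = 0.00521). Its B04 call was lost in 13 of the alternative fits and its B64 call in 7. Zc2hc1a was at 0.16 ± 0.22 in B04 and its libraries overlapped. Hspa4l, a heat shock protein of the HSP110 family named after its values were seen, was at -0.05 ± 0.09.

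The members just inside the minimum count were 1810062G17Rik with a mean of 12.0, Pex5l with 18.97 and Fgf2 with 20.3. Pex5l, a relative of the peroxisomal import receptor, had 20 and 21.5 normalised counts in the parental pair, 4.6 and 2.0 in the B04 pair and 36.2 and 29.4 in the B64 pair, and 1810062G17Rik had 5.7 and 3.7 in the parental pair, 14.6 and 19.3 in the B04 pair and 13.6 and 14.7 in the B64 pair. They were the lowest and the highest member in B04, at -2.64 ± 0.83 and 1.84 ± 0.89, on the fewest counts. Just outside were Chmp4c with a mean of 8.23, Tpd52 with 5.68 and Gm8797 with 4.77, whose B04 values were 0.26, 0.42 and -0.95.

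B64 was not used to set the limits, so its difference from parental could be tested gene by gene, although both clones are set against the same 2 parental libraries. The median over the 89 members was -0.053, and 55 were negative. In single libraries the median was -0.053 in B64 A and -0.079 in B64 B. DESeq2 called 6 members lower and 4 higher, which is 10 of 89, where 7.45% of all genes tested were called lower and 8.87% higher. Those called lower were Skil, Lhfp, Rpl22l1, Anxa5, Pcdh18 and Noct, and those called higher were Sox2, Nceh1, Car13 and Slc7a11. Lhfp, named here because it was called, had 1720.0 and 1690.0 normalised counts in the parental pair, 1208 and 1248 in the B04 pair and 1314 and 1309 in the B64 pair, at -0.38 ± 0.09 in B64 with an adjusted p of 0.000259.

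The B64 libraries were both below both parental libraries for 36 members, both above for 24 and overlapping for 29, where 33.1% of all expressed genes were below and 31.1% above. These counts rest on few libraries. The number called lower in B64 was 3 without parental B or without B64 A, and the number called higher was 1 without parental A, parental B or B64 B and 0 without B64 A, where 4 were higher at an unadjusted p under 0.05. With the fragment class as a term, in which all B64 libraries are short and both parental ones long, DESeq2 called 0 lower and 0 higher (2 lower and 1 higher at an unadjusted p under 0.05), and edgeR without that term called 15 lower and 7 higher. In the fit with the class, B64 and parental are linked only through the 2 B04 libraries. Over 16 alternative fits the B64 call was lost in 12 for Noct, 10 for Slc7a11, 8 for Nceh1, 7 each for Car13 and Pcdh18, 5 for Anxa5, 3 each for Skil and Sox2, and 1 for Rpl22l1. Lhfp, the remaining member called, was not followed singly over these fits, but its call too was lost with the fragment class as a term. On log2(TPM + 1) the B64 median over the members was 0.017 and that of the other chromosomes 0.033, a difference of -0.016, against -0.044 in the DESeq2 fit.

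The median of the B64 against B04 difference over the members was 0.33, and 75 of 89 were higher in B64. That difference contains the B04 libraries that set the limits and was not tested.

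Partners of these members in their pathways, nearly all on other chromosomes, were read from lists. These lists too were drawn up with earlier results of these data known, so nothing is read from a list's count. Of 75 genes reported for 6 pathways, 67 were expressed, and their B04 median was 0.090. In B04 7 were called lower and 16 higher, and in B64 5 lower and 13 higher, where 12.9% of all genes tested were called lower and 11.2% higher in B04, and 7.45% and 8.87% in B64. Without parental B, B04 A or B04 B the total called in B04 was 12 in place of 23, and in B64 it was 11 without parental B and 9 without B64 A in place of 18. With the fragment class as a term the totals were 12 and 5, and among the partners named below the B04 calls of Pard3 and Sqstm1 and the B64 calls of Ccng2, Dusp6, Gsr, Spry4, Tsc1 and Txnrd1 were lost. Over the 16 alternative fits the B64 call was lost in 7 for Gsr, 5 for Tsc1, 3 for Ccng2 and 1 each for Cdkn1b, Spry4 and Txnrd1, and the B04 call in 5 for Sqstm1 and 3 for Txnip.

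For PI3 kinase, the partner list as reported here held 12 expressed genes besides Pik3ca, whose median was 0.023 in B04 and 0.0069 in B64. Tsc1, an inhibitor of mTORC1, was at 0.12 ± 0.10 in B04 and rose in B64 (0.37 ± 0.10, adjusted p = 0.00174), with 1401 and 1278.5 in the parental pair and 1779 and 1675 in B64.

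For FOXO1, the list of family members and targets had 10 expressed genes, of which 4 were called higher in B04. Ccng2, a cyclin G gene that FOXO factors activate, had 401 and 352 normalised counts in the parental pair, 659 and 618 in the B04 pair and 566 and 533 in the B64 pair (0.76 ± 0.14 in B04, adjusted p = 8.34e-07). Txnip, a thioredoxin inhibitor that lies on chromosome 3 outside the block, had 2697 and 2588 in the parental pair, 3296 and 2951 in the B04 pair and 3569 and 3495 in the B64 pair (0.24 ± 0.08 in B04, adjusted p = 0.00788). Cdkn1b, the kinase inhibitor p27, was at 0.02 ± 0.12 in B04 and rose in B64 (0.54 ± 0.12, adjusted p = 0.000178).

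For cyclin A2, all 15 partners of entry to mitosis were positive in B04, with a median of 0.26, and 6 were called higher. Of all expressed protein-coding genes 48.8% were positive in B04, and 11.2% of all genes tested were called higher. The list was not independent of these data, so nothing is read from its counts. Cdc20, an activator of the anaphase-promoting complex, had 3859 and 4132 normalised counts in the parental pair, 5285 and 5618 in the B04 pair and 4429 and 4405 in the B64 pair (0.45 ± 0.07 in B04, adjusted p = 2.75e-10). Cdc25b, a phosphatase that activates cyclin-dependent kinases, rose in both clones (0.47 ± 0.07 and 0.44 ± 0.07, adjusted p = 2.56e-11 and 9.08e-10). Ccnb2, a mitotic cyclin, was at 0.43 ± 0.09 in B04 (adjusted p = 2.45e-05) and 0.18 ± 0.09 in B64 (adjusted p = 0.169). In B64 the list as a whole had a median of -0.040, with 10 of 15 negative. There 2 were called lower and 2 higher, where 7.45% and 8.87% of all genes tested were.

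For SLC7A11, the 12 genes of cystine uptake and glutathione were all expressed, with 4 called higher and 1 lower in each clone. Gclm, the modifier subunit of the first enzyme of glutathione synthesis, had 2546 and 2537 normalised counts in the parental pair, 3942 and 3622 in the B04 pair and 3009.5 and 2789 in the B64 pair (0.57 ± 0.07 in B04, adjusted p = 6.57e-13). It lies on chromosome 3 outside the block. Gsr, glutathione reductase, rose in B04 (0.57 ± 0.09, adjusted p = 4.05e-08) and in B64 (0.31 ± 0.10, adjusted p = 0.0101). Txnrd1, thioredoxin reductase, was at 0.02 ± 0.06 in B04 and 0.31 ± 0.06 in B64 (adjusted p = 1.16e-06).

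For FGF2, the receptor and Sprouty list had 12 expressed genes, with 4 called lower and 2 higher in B04. Fgfr1, the one FGF receptor gene of the 4 that reached the minimum, had 574 and 629 normalised counts in the parental pair, 243 and 239 in the B04 pair and 159.7 and 161 in the B64 pair. It fell in B04 (-1.32 ± 0.16, adjusted p = 5.98e-14) and in B64 (-1.91 ± 0.17, adjusted p = 6.56e-26). Dusp6, a phosphatase of ERK, fell in B04 (-0.66 ± 0.08, adjusted p = 1.94e-15) and in B64 (-0.21 ± 0.08, adjusted p = 0.0381), where the call was lost in 11 of the 16 alternative fits. Spry4, a Sprouty inhibitor of receptor signalling, fell in B04 (-0.43 ± 0.08, adjusted p = 1.02e-06) and rose in B64 (0.53 ± 0.08, adjusted p = 5.05e-10).

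For PRKCI, 6 of 8 listed polarity partners were expressed and 2 were called lower in B04. Pard3, a scaffold of the polarity complex, was at -0.20 ± 0.08 in B04 (adjusted p = 0.0481), a call that was lost in 12 of the 16 alternative fits. Sqstm1, the p62 adaptor that binds atypical protein kinase C, had 21805 and 22248 normalised counts in the parental pair, 19725 and 19299 in the B04 pair and 31687 and 29505 in the B64 pair. It fell in B04 (-0.17 ± 0.05, adjusted p = 0.00527) and rose in B64 (0.47 ± 0.05, adjusted p = 1.17e-17).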

How the data were processed

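RNA was measured in 6 libraries, 2 each of parental CT26, B04 and B64, grouped by the sample titles. The authors sequenced 150-base pairs, aligned them with STAR to mm10 and counted genes with RSEM, and the submitters' processing notes name the same tools and build. The deposited files give, per gene, an expected count, TPM, FPKM, and gene and effective lengths. Whole-number rounding of the deposited expected counts came before the test in DESeq2 1.42.0 (R 4.3.3; all 6 libraries, group as the factor, Wald test, Benjamini-Hochberg adjustment over 13218 genes, threshold 0.05, no shrinkage of fold changes). Deposited TPM values served for markers and a limma 3.58.1 alternative, and the deposited FPKM values were not used. Counts normalised by size factors and log2 ratios with a pseudocount of 1 are given per library. Gene positions and types came from GENCODE M21, which matched 53706 of 53801 genes. Members, limits and lists were chosen with earlier results of these data known. The libraries of a pair differed by more than sampling noise (chi-square per degree of freedom 5.33 to 7.17) and counted as separate replicates.

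The genes named were up to 4 of the most abundant members per role list, the 5 lowest and 5 highest members in B04 and the 3 lowest and 3 highest in B64 among those with a mean of at least 100, genes at the limits of the interval and of the minimum count, and up to 3 called partners per list. Others were named after their values were seen. Some genes are not reported here and were left out of the lists. Alternatives covered edgeR 4.0.16, other size factors, length and GC offsets, blocks, count minimums and left-out libraries. The DESeq2 and edgeR group tests were also run on simulated counts.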

Additional observations from a re-analysis of the deposited data

Results flagged for a closer look

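For 11 of the block members named by the stated rule, the 2 clones lay on opposite sides of the parental level, each with no overlap of libraries. The log2 difference of B64 from B04 was 1.16 for Nceh1, 0.933 for Nhlrc3, 0.849 for Fndc3b, 0.809 for Car13, 0.808 for Sox2, 0.712 for Mgst2, 0.548 for Sec62, 0.531 for Gyg, 0.526 for Pld1 and 0.484 for Bbs7. It was -0.828 for Pcdh18, the one member of the 11 that was higher in B04. Over the whole block, 16 members lay below parental in B04 and above it in B64, and 1 lay the other way, without overlap. Of all expressed protein-coding genes, 35.4% lay below parental without overlap in B04 and 33.5% above, against 33.1% and 31.1% in B64. The share on opposite sides was not counted over all genes, and the rule partly named extremes of either clone. Nothing is therefore read from the number of such members. Because the members were chosen on B04, these differences were not tested.

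For 11 partner genes the effects of the clones against the shared parental libraries differed by the DESeq2 test of B64 against B04. The log2 difference was 0.954 for Spry4 (adjusted p = 4.15e-32), 0.649 for Sqstm1 (adjusted p = 2.46e-33), 0.523 for Cdkn1b (adjusted p = 0.000194), 0.448 for Dusp6 (adjusted p = 2.55e-07), 0.296 for Txnrd1 (adjusted p = 3.44e-06) and 0.247 for Tsc1 (adjusted p = 0.0423), all higher in B64. It was -0.588 for Fgfr1 (adjusted p = 0.00679), -0.384 for Gclm (adjusted p = 3.67e-06), -0.303 for Cdc20 (adjusted p = 4.3e-05), -0.258 for Gsr (adjusted p = 0.0277) and -0.243 for Ccnb2 (adjusted p = 0.0307), all lower in B64. These partners had been picked for a small adjusted p of a clone against parental in the same libraries, which favours a call here. Of the 10418 expressed genes on other chromosomes, the same test called 1347 lower and 1469 higher in B64, so nothing is read from the number.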

How the results depend on the processing

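The block median in B04 was negative under every alternative run and ranged from -0.39 to -0.24. With limma it was -0.24 on log2(TPM + 1) and -0.27 on log2(TPM + 0.1), where the median of the other chromosomes was 0.068 and 0.077; the difference between block and other chromosomes was then -0.31 and -0.35, against -0.35 in the DESeq2 fit. On the same scales the B64 median reversed to 0.017 and 0.017 while the other chromosomes were at 0.033 and 0.037, a difference of -0.016 and -0.020; the B64 against B04 median was 0.23 and 0.27, the rest of chromosome 3 was at -0.063 and -0.068 in B04, and 23 members were called lower in B04 and 3 lower and 2 higher in B64, on either. The B64 median was -0.016 with an effective-length offset and -0.098 over members with a mean of at least 100. edgeR called 15 members lower and 7 higher in B64. With a fragment-length class block, 27 members were called lower and 1 higher in B04, 0 lower and 0 higher in B64, and 12 and 5 partners in B04 and B64. The number called higher in B04 was 1 with size factors from other chromosomes, with the 2 groups fitted alone, and without the members whose exons overlap another gene (an alternative chosen after seeing the data). The number called lower in B64 was 3 without members within 5 Mb of either end and 3 without the 10 largest changes. The cause of these shifts was not tested.

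Leaving out 1 library at a time gave block medians of -0.3877 to -0.3537 in B04, -0.07853 to -0.05305 in B64 and 0.305 to 0.3433 between the clones, 29 to 41 members called lower and 1 higher in B04, 3 to 5 lower and 0 to 3 higher in B64, a median of -0.1591 to -0.144 for the rest of chromosome 3, and 12 to 19 and 9 to 16 partners called. The library letters share only a name, as deviations of same-lettered libraries correlated at 0.11, 0.013 and -0.045; with the replicate block 44 members were called lower and 1 higher in B04. For single genes named by rule no called value changed sign. Of the B04 calls of the members, Pcdh18 was lost in 13 of 16 fits, Ccna2 and Intu in 11, and Bbs12 and Elf2 in 10. Ndufb5 was lost in 9 and Mfn1 in 8, and other B04 calls of these members in fewer. Of their B64 calls, Noct was lost in 12 and Slc7a11 in 10 of 16 fits. Low counts limit Il7, Pex5l, Fgf2 and 1810062G17Rik.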

Other observations

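Genes of other types in the interval were also measured, and 11 of 500 reached a mean of 10 normalised counts. Their B04 median was -0.058, with 6 of 11 negative, and their B64 median was 0.47. The 975 such genes on the other chromosomes had medians of 0.070 and 0.071. The lincRNA gene 4632415L05Rik had 320.5 and 316 normalised counts in the parental pair, 310.1 and 301 in the B04 pair and 229 and 232 in the B64 pair. The processed pseudogene Gm10259 was at 0 in both parental libraries and in B04 A, the 3 libraries with long fragments, and at 1009, 731 and 396 in B04 B, B64 A and B64 B, the 3 with short fragments. The part of fragment length in these counts was not tested. These genes were looked at after the members' values were known.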
